A study of Mus musculus with 4 samples.

Results

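Cerebellins are small secreted proteins of the C1q family that bridge synapses. They bind neurexins, adhesion proteins of the presynaptic membrane, and on the other side of the cleft the delta receptors, which belong to the ionotropic glutamate receptor family by sequence. Cbln1 is best known from parallel fibre synapses of the cerebellum, and Cbln2 and Grid1 from forebrain circuits. The set described here was chosen by gene symbol with the values of the comparison below already known, and it names 7 genes: the ligands Cbln1, Cbln2, Cbln3 and Cbln4, the neurexins Nrxn2 and Nrxn3, and the delta receptor Grid1. Of these, 5 are among the 13289 genes of the count table and all 5 passed the filter on low counts. Cbln3 and Cbln4 were not analysed here.

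The libraries were made from polyadenylated RNA of the cerebral cortex of E15 mice (embryonic day 15), with 2 control libraries, titled WT, and 2 Lhx2 cKO libraries. Lhx2 is a LIM-homeodomain transcription factor of cortical progenitors, and cKO is read as conditional knockout. The labels give no Cre driver, allele, strain, sex or litter, and do not say whether a library holds 1 embryo or several, so the p-values measure only the spread between these libraries. That spread is estimated in large part from all genes together. Totals ranged from 22294237 to 24609627 counts, at which 3 counts, taken as the limit of detection, are 0.12 to 0.132 CPM (counts per 1000000 counts of the library total, scaled by TMM, the trimmed mean of M-values). Lhx2 itself measured 316 and 287 CPM in control against 239 and 247 CPM in Lhx2 cKO, so that 80.7% of its mean control level remained. The adjusted p of this fall was 0.0191 with edgeR's quasi-likelihood method, and it was 0.176, 0.102 and 0.0538 without control 1, Lhx2 cKO 1 and Lhx2 cKO 2. The counts cover the whole gene and the deleted part is not stated, so they are a weak check of the labels. Tbr1 and Neurod6, which mark cortical excitatory neurons, were present in every library, the lowest of their values being 239 CPM.

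Which neurexin transcripts can bind a cerebellin depends on splicing. Cerebellins bind neurexins that carry a short insert at splice site 4 of the extracellular part. The exon for this insert in Nrxn3 is printed here because the gene counts below add up transcripts with and without it. The sequence is from the GENCODE M21 transcripts, whose build is GRCm38.
Nrxn3: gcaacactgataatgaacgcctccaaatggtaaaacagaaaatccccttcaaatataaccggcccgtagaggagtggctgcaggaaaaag
The exon has 90 bases, which is 30 codons, lies on the plus strand at chr12:90199147-90199236 and is the only coding exon of that length in Nrxn3. Of the 7 annotated coding transcripts that span it, 5 contain it. The deposited values are 1 count per gene and library, so the use of this exon in the control and Lhx2 cKO cortex was not measured.

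Within the set, the 2 cerebellins were higher in Lhx2 cKO, Cbln2 by 10.7-fold and Cbln1 by 1.54-fold, while the 2 neurexins and Grid1 did not pass the threshold. A gene is said to be called, and to have risen or fallen, when its adjusted p in edgeR's quasi-likelihood test was under 0.05 over the 13288 genes tested. Of the 5 genes tested, 2 were called, both higher, and 3 were not called. Among all genes tested 20.8% were called, 11.6% higher and 9.17% lower. Because the genes were selected with values of this same comparison known, their values are a description and nothing is read from this count.

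Cbln2 (ENSMUSG00000024647.15) was counted 94 and 144 times in control, against 1015 and 1354 times in Lhx2 cKO. As CPM these are 3.88 and 5.76 for control, against 44.6 and 58.9 for Lhx2 cKO. Both Lhx2 cKO libraries lay far above both control libraries. The means were 4.82 ± 1.33 CPM (SD, n = 2) and 51.8 ± 10.1 CPM (SD, n = 2). The log2 fold change was 3.42 (SE 0.155), or 10.7-fold with a 95% interval of 8.63 to 13.3. This SE and interval, like those of all genes here, rest mostly on spread shared across genes (38.7 of 40.7 degrees of freedom). They do not measure the spread of the Cbln2 replicates alone. The rise of Cbln2 was the fifth largest log2 fold change of the 13288 genes (rank 5). Within the control group its libraries differed by 1.49-fold, and the exact Poisson 95% intervals of the counts, 76 to 115 and 121 to 170, did not overlap, so the spread exceeded counting error. This replicate difference was larger than that of 94.6% of tested genes, and in Lhx2 cKO, at 1.32-fold, larger than that of 90% of them. Leaving out control 1 gave a log2 fold change of 3.15, and leaving out control 2 gave 3.74.

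Cbln1 (ENSMUSG00000031654.17) was counted 788 and 905 times in control, against 1104 and 1313 times in Lhx2 cKO. Its CPM were 32.5 and 36.2, against 48.5 and 57.2, so the groups did not overlap. The means were 34.4 ± 2.62 and 52.8 ± 6.11 CPM (SD, n = 2 each), which gave a log2 fold change of 0.62 (SE 0.108). The 95% interval was 0.40 to 0.84 for Cbln1 and 3.11 to 3.73 for Cbln2. The absolute change of Cbln1 was larger than that of 89.1% of tested genes. Without each library in turn its log2 fold change was between 0.49 and 0.73.

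**Figure D1:**
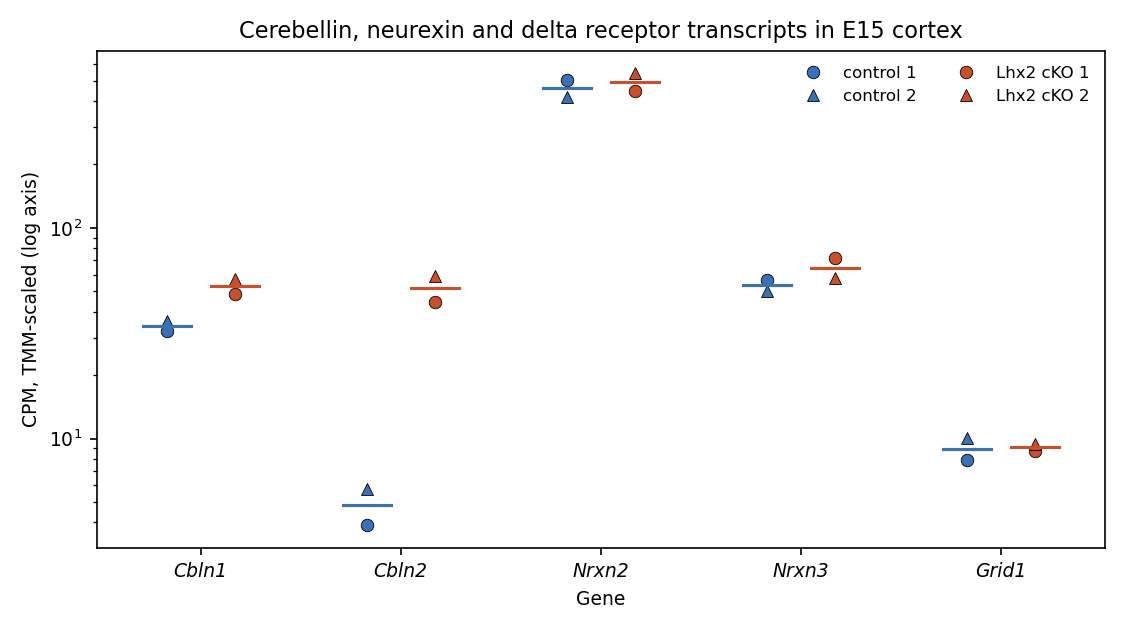
TMM-scaled CPM on a log axis for each of the 4 libraries (circles replicate 1, triangles replicate 2) of control (blue) and Lhx2 cKO (red), with short lines at the group means, for the 5 genes of the set in the table. Cbln2 moves from 3.88 and 5.76 CPM to 44.6 and 58.9 CPM, the widest gap of the 5 genes, while the groups of Nrxn2 and Grid1 overlap.

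Levels of different genes were compared per length, as CPM per kilobase of the deposited gene length (RPKM). In control cortex Cbln1 was the main cerebellin of the pair, at 10.7 and 11.9 RPKM, against 1.34 and 1.99 RPKM for Cbln2. In Lhx2 cKO the pair stood level, with Cbln1 at 16 and 18.8 RPKM and Cbln2 at 15.4 and 20.4 RPKM. Cbln2 thus made up 11.1% and 14.3% of the summed level of Cbln1 and Cbln2 in control, against 49.1% and 52% in Lhx2 cKO. The summed level was 13 ± 1.32 RPKM (SD, n = 2) in control and 35.3 ± 5.51 RPKM (SD, n = 2) in Lhx2 cKO, which is 2.72-fold. Of the difference of 22.3 RPKM between these means, 16.2 RPKM, or 72.7%, came from Cbln2 and 6.09 RPKM from Cbln1. In control the order of the 5 genes by RPKM was Nrxn2, Cbln1, Nrxn3, Cbln2, Grid1 in both libraries. In Lhx2 cKO 1 Cbln2 was the third, after Cbln1, and in Lhx2 cKO 2 it stood above Cbln1, so the order of Cbln1 and Cbln2 did not hold across replicates.

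**Figure D2:**
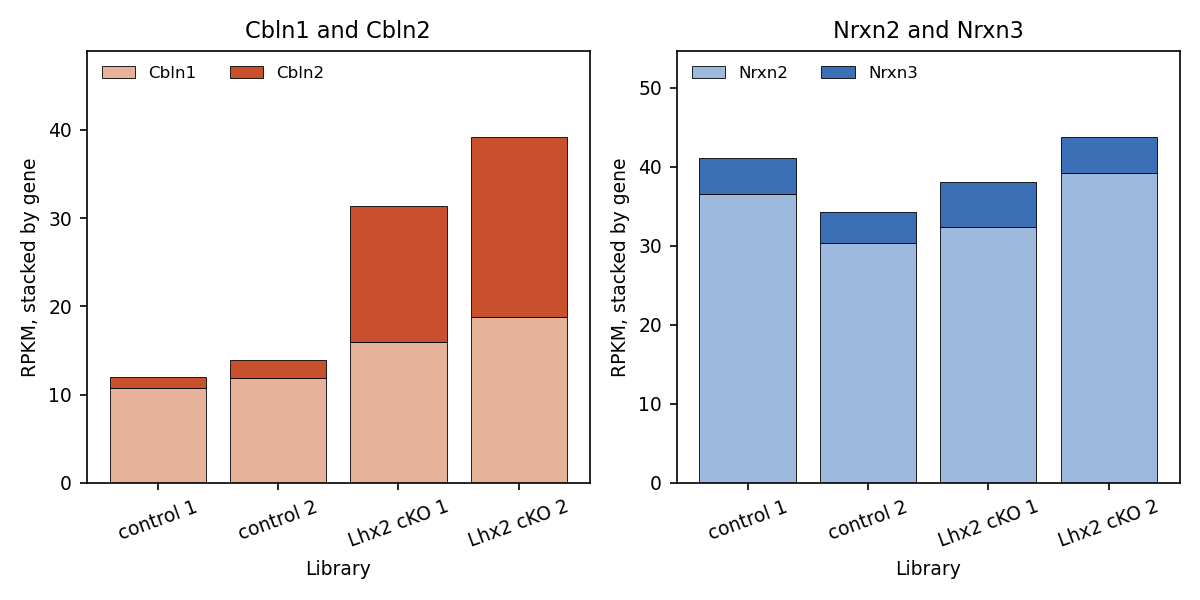
RPKM stacked by gene in each of the 4 libraries, for Cbln1 and Cbln2 on the left and for Nrxn2 and Nrxn3 on the right. The Cbln2 part goes from 11.1% and 14.3% of the cerebellin bar in control to 49.1% and 52% in Lhx2 cKO, and Nrxn2, at 30.4 to 39.2 RPKM, is the larger part of every bar on the right.

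Cbln1 and Cbln2 are close relatives, which matters for how reads were assigned to each. Their coding sequences in GENCODE M21, of 579 and 672 bases without the stop codon, were identical at 435 of the 672 columns of their alignment (64.7%). These columns include gaps, which count as not identical, so the share is higher where bases stand opposite each other. The longest run of bases shared exactly by any of their transcripts was 18. No exon of another M21 gene overlapped an exon of either one.

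The neurexins are the presynaptic partners, and each gene gives long and short proteins from separate start sites, which a gene count adds together. Nrxn2 (ENSMUSG00000033768.18) was the most abundant of the 5 genes, at 506 and 420 CPM in control and 447 and 541 CPM in Lhx2 cKO. The groups overlapped, with control 1 above Lhx2 cKO 1 and control 2 below both Lhx2 cKO libraries. The log2 fold change was 0.10 (SE 0.11) with a 95% interval of -0.13 to 0.32. Its sign turned on single libraries, at -0.03 without control 2 and -0.052 without Lhx2 cKO 2. Exons of the transporter gene Slc22a12 cover 4.94% of the exon bases of Nrxn2 on the opposite strand. Slc22a12 had 37 to 57 counts a library, and the use of strand in counting is not given in the sources used here.

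Nrxn3 (ENSMUSG00000066392.13) was at 56.7 and 50.1 CPM in control and at 71.6 and 57.9 CPM in Lhx2 cKO. The groups did not overlap, but Lhx2 cKO 2 lay only just above control 1, and Lhx2 cKO 1 was apart from the other 3 libraries. The log2 fold change was 0.28 (SE 0.106) and did not pass the threshold, its adjusted p in edgeR being 0.0568. Without Lhx2 cKO 1 the log2 fold change was 0.12, and without Lhx2 cKO 2 it was 0.42 and passed, so this call depends on the library left out. Counting Nrxn3, the groups did not overlap in CPM for 3 of the 5 genes tested, against 59.3% of all genes tested.

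Per length, Nrxn2 stood above Nrxn3 in every library, at 36.6 and 30.4 RPKM in control and 32.4 and 39.2 RPKM in Lhx2 cKO, beside 4.47 and 3.95 RPKM and then 5.64 and 4.57 RPKM for Nrxn3. RPKM here uses the deposited length, which equals the union of all M21 exons for 4 of the 5 genes. For genes with many alternative exons, such as the neurexins, that length is longer than any 1 transcript and lowers the RPKM.

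The delta receptors are the postsynaptic partners, and Grid1 encodes the one in the set. Grid1 (ENSMUSG00000041078.8) was at 7.88 and 10 CPM in control, from 191 and 251 counts, and at 8.70 and 9.45 CPM in Lhx2 cKO, from 198 and 217 counts. Both Lhx2 cKO libraries lay between the control libraries. The log2 fold change was 0.02 (SE 0.184), and its 95% interval of -0.35 to 0.39 leaves room for a change of up to 1.31-fold upward or to 0.783 of the control level. It was -0.16 without control 1 and 0.20 without control 2.

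**Figure D3:**
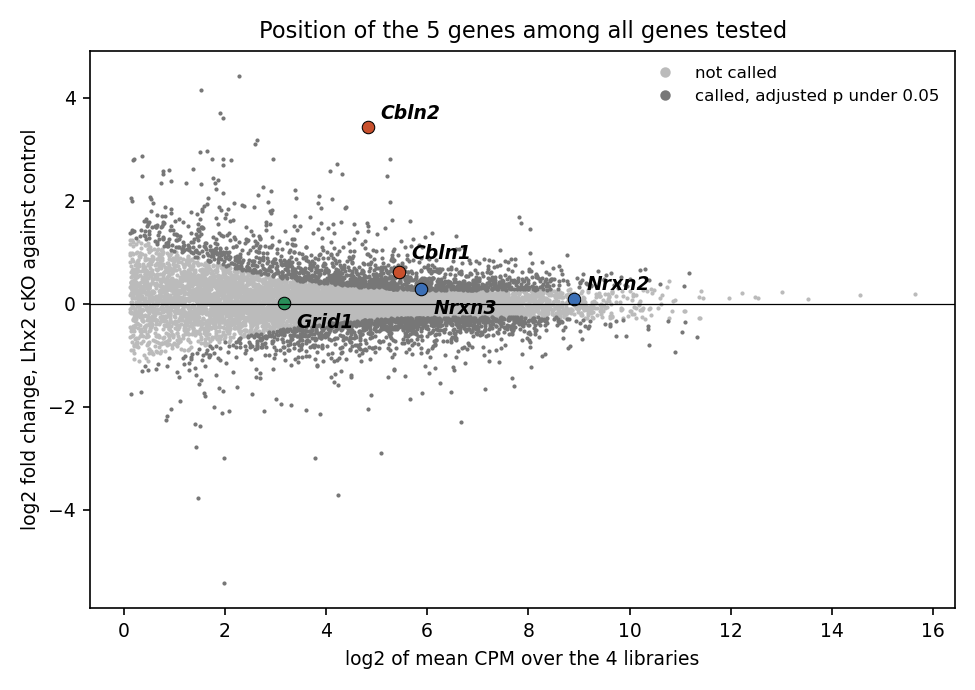
Log2 fold change (Lhx2 cKO over control) plotted against log2 mean CPM for the 13288 genes tested, called genes in dark grey, with the cerebellins (red), neurexins (blue) and Grid1 (green) marked. Cbln2, at 3.42, stands above genes of similar level, whereas Grid1 at 0.02 and Nrxn2 at 0.10 lie near 0.

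The other genes of this synaptic system were taken from lists by role, 57 genes in all, of which 50 were tested. Of these 50, 22 rose, 4 fell and 24 were not called, which is 44.0% higher and 8.0% lower beside 11.6% and 9.17% of all genes. The lists were chosen with earlier results of these data known. They are therefore a description, and nothing is read from these shares or from the counts and medians of each list below. As each library was left out, 18 to 23 rose and 3 fell, Grin2c being the gene that was no longer called lower.

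Other ligands of neurexins include the neuroligins, the LRRTM proteins, neurexophilins and calsyntenins. Of 19 tested, 8 rose, 2 fell and 9 were not called, with a median log2 fold change of 0.37, against 0.003 over all genes. Without Lhx2 cKO 2 the median was 0.22 with 6 higher, and without Lhx2 cKO 1 it was 0.49 with 11 higher. Igsf21, a neurexin-binding immunoglobulin protein of inhibitory synapses, rose from 49.9 and 54 CPM to 86.2 and 99.7 CPM. Its log2 fold change was 0.84, with an SE of 0.102 and an adjusted p of 2.38e-08 in edgeR. Nlgn1, a neuroligin of excitatory synapses, rose from 47.5 and 55.5 CPM to 76.1 and 87.9 CPM (log2 fold change 0.67), and Lrrtm2, a leucine-rich repeat ligand, from 23.1 and 28.5 to 38.5 and 45.9 CPM (0.71). In each of these the groups were apart. The 2 that fell were Nxph4, a neurexophilin, from 93.2 and 86.3 CPM to 39.2 and 48.3 CPM (-1.04, adjusted p 3.83e-10 in edgeR), and Tafa2, a small secreted protein, at -1.06. Tafa2 was named after its values were seen.

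Mdga1 and Mdga2 encode membrane proteins that bind neuroligins and keep neurexins from them. Both rose, with log2 fold changes of 0.48 and 0.52 (SE 0.101 and 0.108). Mdga1 went from 314 and 276 CPM to 403 and 423 CPM, and Mdga2 from 35.8 and 42.4 to 51.2 and 60.9 CPM. Among C1q-like ligands and their receptor, 2 of 5 genes were tested and 1 rose. This was Adgrb3, an adhesion receptor for C1q-like proteins, from 52.6 and 60.7 to 82.6 and 92.4 CPM (log2 fold change 0.63, SE 0.102). C1ql1, the other gene tested, was named outside the rule for naming. It was at 1.90 and 1.60 CPM in control and at 2.64 and 2.70 CPM in Lhx2 cKO and was not called (adjusted p 0.244 in edgeR).

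Khdrbs1, Khdrbs2 and Khdrbs3 encode RNA-binding proteins of the STAR family that control the splice site 4 exon printed above. Of the 3, Khdrbs3 rose, from 89 and 89.9 CPM to 114 and 111 CPM (0.33 on the log2 scale, SE 0.095, edgeR adjusted p 0.00925). Its call was lost without control 1 (adjusted p 0.0642) and without Lhx2 cKO 1 (0.0568). Khdrbs1, at 241 and 243 CPM against 208 and 211 CPM, and Khdrbs2, at 34.4 and 31.4 against 28 and 28.6 CPM, had log2 fold changes of -0.21 and -0.22 and were not called, although in both the groups were apart. Dcc and Neo1, netrin receptors that bind Cbln4, were not called, at log2 fold changes of -0.02 and 0.05. Their 95% intervals were -0.22 to 0.17 and -0.15 to 0.26, and the sign of Dcc turned without control 2 or Lhx2 cKO 1 and that of Neo1 without control 1 or Lhx2 cKO 2.

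Inside the cell, 7 scaffold genes were tested, of which 2 rose and 1 fell. Cask and Apba2, whose proteins bind the cytoplasmic tail of neurexins or its complex, rose by log2 fold changes of 0.32 (SE 0.094) and 0.39 (SE 0.097). The call of Cask was lost without control 1 or Lhx2 cKO 2 (adjusted p 0.106 and 0.0722), and that of Apba2 without control 2 (0.0639). Grid2ip, which encodes a scaffold of glutamatergic synapses, fell from 18.2 and 12.7 CPM to 7.82 and 7.18 CPM (-1.04 on the log2 scale, SE 0.177, edgeR adjusted p 1.83e-05).

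The delta receptors belong to the ionotropic glutamate receptors by sequence, and 15 other subunit genes of that family were tested. Of these, 8 rose, 1 fell and 6 were not called, with a median log2 fold change of 0.33. Gria4 and Gria3, AMPA receptor subunits, had log2 fold changes of 0.82 and 0.63. Grik3, a kainate receptor subunit, was at 0.53 and Grin1, the obligatory NMDA receptor subunit, at 0.50, with standard errors between 0.099 and 0.11 for these 4 genes. Grin2c, named after its values were seen, was the 1 called lower, at -1.16 (SE 0.411, edgeR adjusted p 0.0375) and from 2.21 to 0.984 mean CPM. Its call was lost with DESeq2 (adjusted p 0.0857) and without any 1 of the 4 libraries (0.101 to 0.168), and it was not tested at a mean count of at least 50.

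**Figure D4:**
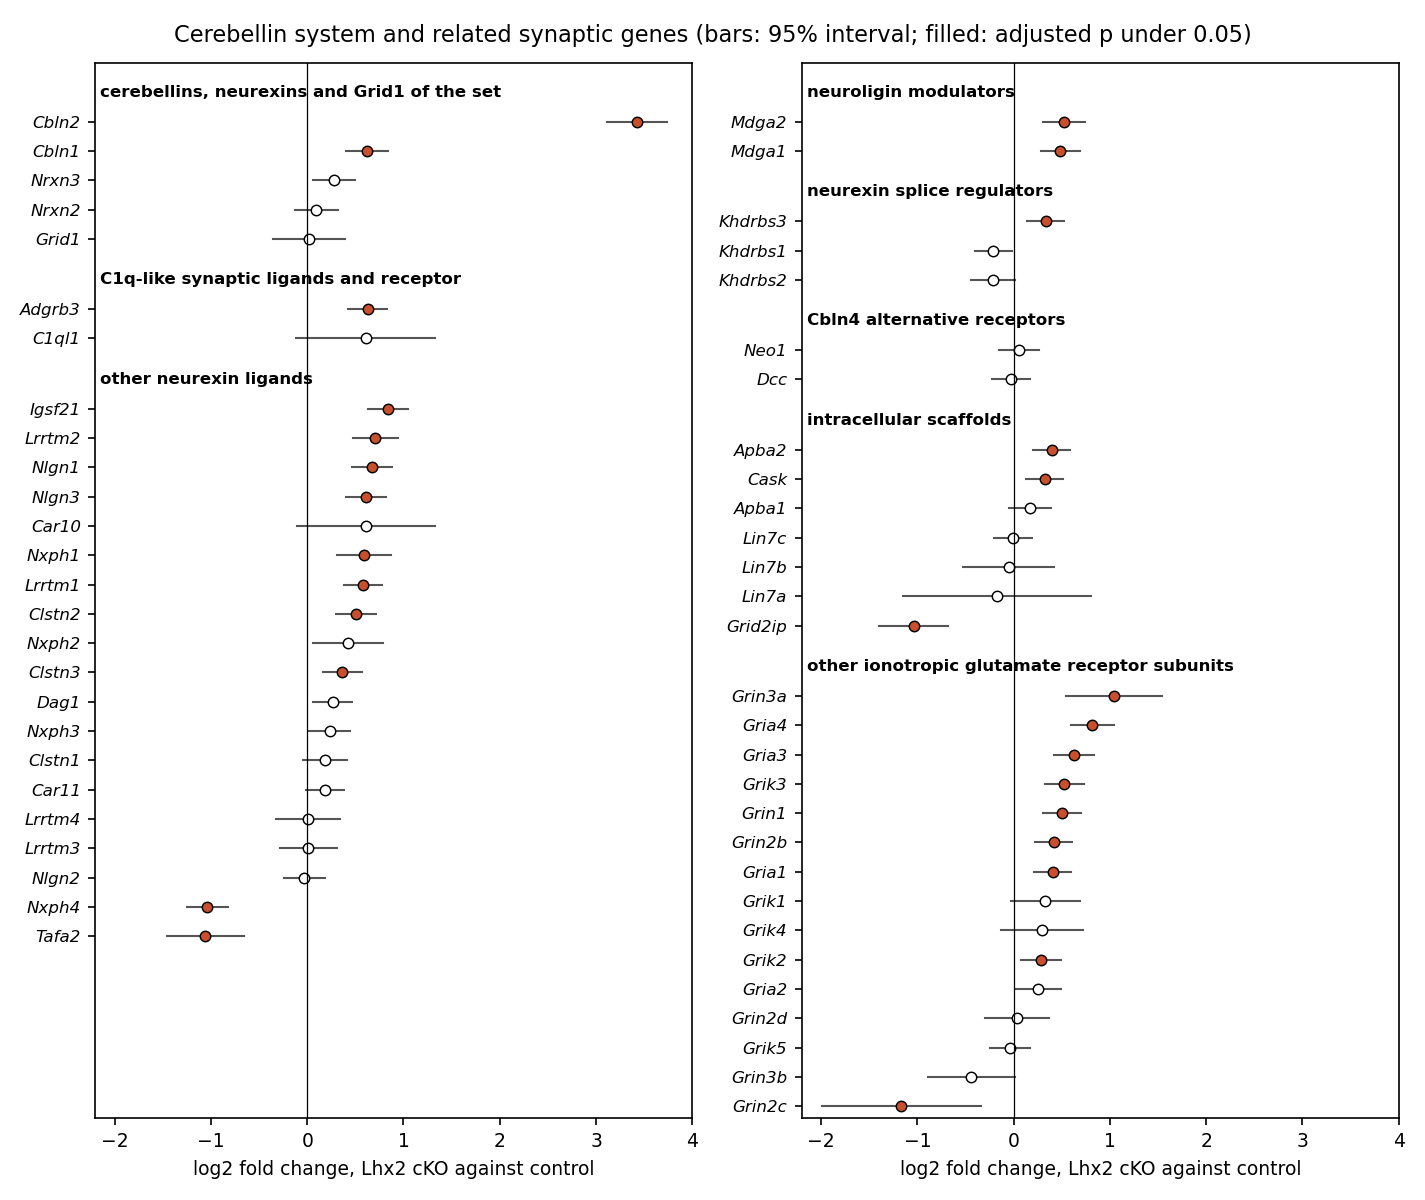
Log2 fold change (Lhx2 cKO over control) with 95% intervals for the 5 genes of the set and the 50 genes of the lists, grouped by role; filled points passed an adjusted p of 0.05. Cbln2 at 3.42 lies beyond all others drawn. Of the 19 other neurexin ligands 16 lie above 0, some only just, and 8 are called higher. Their median is 0.37 against 0.003 over all genes tested, and nothing is read from this count. The 4 genes called lower are Nxph4 (-1.04), Tafa2 (-1.06), Grid2ip (-1.04) and Grin2c (-1.16). Grin2c loses its call when any 1 library is left out.

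The genes nearest to Cbln2 in pattern were found by the root mean square difference of log2 CPM, centred on each gene's mean over the 4 libraries, among the 12454 genes whose mean reached 2 CPM. The nearest was Oas1b, an oligoadenylate synthetase gene, at a difference of 0.318, with 0.371 and 0.68 CPM in control and 7.65 and 6.22 CPM in Lhx2 cKO. Bst2, which encodes tetherin, followed at 0.362, with 3.92 and 5.96 CPM in control and 31.2 and 33.7 CPM in Lhx2 cKO. Ddx60, an RNA helicase gene, came next at 0.376, with 0.701 and 0.6 CPM in control and 4.48 and 5.57 CPM in Lhx2 cKO. The control values of Oas1b and Ddx60 are low, so their log2 differences are less certain. With 4 libraries the measure ranks mostly the size of the group difference. It is a description with no test.

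Marker lists of cell types were counted in the same comparison, in which 11.6% of all genes tested were called higher and 9.17% lower. Several of the counts below are near these shares. The lists were chosen with earlier results of these data known, so the counts are a description and nothing is read from them. The part of these cell types in the changes of Cbln2, Cbln1 and the partner genes was not tested. In bulk tissue, a change in the number of cells of a type and a change in RNA per cell cannot be told apart. The summed level of 9 pan neuron markers was 6118 to 6317 CPM in control and 6332 to 6501 CPM in Lhx2 cKO, with 2 called higher and 2 lower, and 1 lower without control 1, Lhx2 cKO 1 or Lhx2 cKO 2. The 6 Cajal-Retzius markers tested summed to 295 to 326 CPM in control and 447 to 570 CPM in Lhx2 cKO. Most of each sum was Reln, at 261 and 287 CPM in control and 384 and 498 CPM in Lhx2 cKO. Of the 6 markers, 4 were called higher. Among these Trp73, named after its values were seen, had an adjusted p of 0.048 in edgeR, and 3 were called with RLE, library totals, the replicate block, DESeq2 and limma-voom and as each library was left out (adjusted p of Trp73 0.0509 to 0.283). The 10 interneuron markers summed to 316 to 343 CPM and 433 to 442 CPM, with 3 called higher. Markers of upper-layer neurons (4 of 5) and intermediate progenitors (4 of 5) were called lower, with sums of 1090 to 1233 against 918 to 970 CPM and of 518 to 519 against 269 to 270 CPM. Microglia markers (7 of 8 called higher) went from 114 CPM in both control libraries to 230 and 254 CPM. Endothelial markers (5 of 6 called higher) went from 132 and 165 to 210 and 243 CPM, with 2 of 6 called without control 1 and 3 without Lhx2 cKO 2. Deep-layer and subplate markers summed to 934 to 967 and 931 to 942 CPM, with 2 of 9 called higher and 1, Foxp2, lower. Without control 1 or control 2, and with DESeq2, 1 was called higher, and Foxp2 lost its call without control 1, Lhx2 cKO 1 or Lhx2 cKO 2 (adjusted p 0.109, 0.0697 and 0.0652). A count of 2 lower was reached with RLE, upper-quartile factors and the replicate block and without control 2. Radial glia markers summed to 718 to 772 and 710 to 731 CPM, with 1 of 8 called higher and 2 lower. The 2 lower were Nes and Pax6, and Pax6 fell from 123 and 134 to 57.5 and 51.7 CPM. Its log2 fold change was -1.24, with an adjusted p of 6.4e-13 in edgeR, a fall that the sums do not show. The higher call was lost with library totals, DESeq2 and without control 1, Lhx2 cKO 1 or Lhx2 cKO 2, and 1 lower call, of Nes, without control 1 (adjusted p 0.192) or Lhx2 cKO 2 (0.0503). Of the thalamic markers, 4 of 5 were tested and summed to 99.1 to 109 CPM in control and 93.9 to 95.1 CPM in Lhx2 cKO, with 1 called higher. This was Rora, at an adjusted p of 0.0479 in edgeR, which was lost with RLE, the replicate block, DESeq2 and limma-voom, and without control 1, control 2 or Lhx2 cKO 1 (adjusted p 0.0505 to 0.593). Of the 9 striatal markers 5 were tested and 2 were called higher, with sums of 63.1 to 72.6 and 76.1 to 81.5 CPM, and 1 without control 1 or Lhx2 cKO 2, where Drd1 had an adjusted p of 0.111 and 0.21. Red blood cell markers summed to 2338 to 3171 and 1899 to 2128 CPM, with 5 of 6 called lower and 1 higher. The number lower was 1 without control 1, 3 without Lhx2 cKO 2 and 3 with DESeq2, and the higher call was lost without control 2 or Lhx2 cKO 1. No tested marker was at 0 counts in all libraries, and Gbx2, Lhx1, Cplx3, Drd2, Isl1, Tac1 and Rarb were not analysed here.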

How the data were processed

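The deposited table gives raw read counts per gene for the 4 libraries. Per the submitters' processing notes, Trim Galore, Subread, featureCounts, edgeR and the build mm39 were used, with versions, settings and strand not given in the sources used here. The authors' log2 fold change and log2 CPM, their p-values and adjusted p-values and the -log10 of the latter were deposited beside the counts and were used only as a check: the authors' deposited table has log2 values of 3.41 for Cbln2 and 0.61 for Cbln1. The authors also deposited a gene length, used for RPKM. The lowest row total was 102 counts, and CPM are over the 13289 genes analysed.

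Libraries were grouped by their titles. edgeR 4.0.16 in R 4.3.3 was run on the counts across all genes with TMM factors (0.973 to 1.02), filterByExpr (minimum 10 counts, which removed 1 gene) and the two-sided quasi-likelihood test without covariates, with Benjamini-Hochberg adjustment. The code was tested on simulated data. SE is the absolute log2 fold change over the square root of F. Intervals of counts are exact Poisson and cover counting error only. Alternatives were RLE, upper-quartile and library-total scaling, no filter, a filter on mean counts under 50, the replicate block, DESeq2 1.42.0, limma-voom 3.58.1, stricter thresholds and each library left out, where a lone library is assumed to vary like the other group. The set, the gene lists and the rule for naming were chosen with earlier results of these data known. The rule named the set, up to 4 called genes per pathway list by smallest p, all genes of lists of 3 or fewer, up to 2 called genes per marker list, and the 3 genes nearest in pattern to a called gene of the set that changed by 1 or more on the log2 scale. Some genes of the lists are not reported here.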

Additional observations from a re-analysis of the deposited data

How the results depend on the processing

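Under the 8 alternative scalings, filters, block and tools, the log2 fold change of Cbln2 was between 3.41 and 3.43 and that of Cbln1 between 0.61 and 0.63, both called each time, and Nrxn2 and Grid1 were not called under any of them. Nrxn3 passed the threshold with upper-quartile factors (log2 fold change 0.28, adjusted p 0.0438) and with the replicate block (0.27, adjusted p 0.0422), within a range of 0.0422 to 0.153. The cause was not tested. Over all genes, the difference between replicates 1 and 2 in control was not correlated with that in Lhx2 cKO (correlation 0.001). A single value over all genes cannot show whether replicate numbers pair the libraries. With the block 2874 genes were called in place of 2758. With a required absolute log2 fold change of at least 1, Cbln1 (0.62) is not called by construction, and 446 genes are; at an adjusted p under 0.01, 1697 are. Leaving out each library gave 1633 to 2396 called genes, the fewest without Lhx2 cKO 2 and next without control 1 (1790), with fewer samples, and log2 fold changes of 0.49 to 0.73 for Cbln1, 3.15 to 3.74 for Cbln2, -0.05 to 0.23 for Nrxn2, 0.12 to 0.42 for Nrxn3 and -0.16 to 0.20 for Grid1. Nrxn3 passed without control 1 (0.36) and without Lhx2 cKO 2 (0.42). Nrxn2 was negative without control 2 (-0.03) and without Lhx2 cKO 2 (-0.052), and Grid1 without control 1 (-0.16) and without Lhx2 cKO 2 (-0.05). TPM (transcript-scaled values, another unit) were in control and Lhx2 cKO 37.1 and 54.3 for Cbln1, 5.49 and 55.7 for Cbln2, 109 and 112 for Nrxn2, 13.7 and 16.1 for Nrxn3, and 4.94 and 4.76 for Grid1, in the same order within each group as the mean RPKM. Depth limits Cbln2 in control and Grid1 most, at 94 to 251 counts a library.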
